A study of Drosophila melanogaster with 20 samples.

Results

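The Hox genes of Drosophila lie in a pair of clusters on chromosome arm 3R, and both were examined here with their flanks in larval salivary glands. The windows of the Antennapedia complex (ANT-C) were those centred from 2200000 to 3000000 on 3R, and the windows of the Bithorax complex (BX-C) were those centred from 12300000 to 13000000 (dm3 assembly). This rule took 161 windows for the ANT-C locus and 141 for the BX-C locus, 302 of the 27631 windows with an H3K27me3 value. All 302 carried values for H3K27me3 and H3K27me2 in both genotypes.

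Hox genes encode homeodomain transcription factors that give body segments their identity. Outside the segments where each is needed they are kept silent by Polycomb group proteins. The PRC2 complex methylates lysine 27 of histone H3, H3K27me3 is bound by the Pc subunit of PRC1, and H3K27me2 is the lower methylation state that covers much of the silent genome. SUUR protein slows replication forks in late-replicating repressed chromatin of polytene chromosomes. Without it, regions that stay under-replicated in wild type glands become more fully replicated.

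The ANT-C holds lab, pb, Dfd, Scr and Antp, which act in the head and the anterior thorax, together with the early patterning genes zen, bcd and ftz, the zen paralogue zen2 and Ama, which encodes a secreted immunoglobulin-domain protein. In the RefSeq annotation of Release 6 the order along 3R is lab, pb, zen2, zen, bcd, Ama, Dfd, Scr, ftz and Antp, with 19 protein-coding genes from the first to the last. The BX-C holds Ubx, abd-A and Abd-B, in this order, which specify the posterior thorax and the abdomen, with 6 protein-coding genes in the same span. Coordinates of Release 6 do not apply to the dm3 windows, so no window was assigned to a gene.

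The groups were wild type (y,w) and SuUR mutant larvae of the 3rd instar kept at 23 °C, whose salivary glands were fixed with formaldehyde. The antibodies were from Cell Signaling Technology (CST) for H3K27me3 and from Millipore for H3K27me2. These 8 gland libraries gave 4 profiles, each of 1 ChIP library over 1 input library, as log2 of the ChIP/input ratio in 50 kb windows placed every 5 kb. A value of 1 is thus 2-fold over input and a value of 2 is 4-fold. The series holds 12 embryo libraries as well, which were not analysed here.

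With 1 profile per genotype and mark there is no replicate, so no difference between the genotypes was tested, and the SD given below is the spread over windows. Neighbouring windows share most of their sequence, so this SD is no replicate error. The depth of the libraries is unknown. Quantile normalization had been applied for each mark, which ties wild type and SuUR to 1 distribution and hides any change common to the whole genome. Input DNA differs between the genotypes where wild type is under-replicated. Reported under-replicated regions overlap both loci (2525000 to 2895148 and 2232597 to 2485165 in the ANT-C locus, 12465000 to 12820000 and 12995000 to 13175000 in the BX-C locus). The part of input DNA in the ratios was not tested.

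Published lists divide the H3K27me3 chromatin of the glands into SuUR-non-sensitive regions (SNRs) and SuUR-sensitive regions (SSRs). SNRs have abundant mark that is kept in SuUR mutants, and SSRs have moderate mark that is reduced in them. The lists were drawn up by the effect of the mutation in earlier profiles with other antibodies, and not from the profiles used here. The list has 158 SNRs, of which 40 hold at least 1 whole window. The BX-C lies in the longest of them, from 12484240 to 12803370 (319.1 kb), which holds 54 whole windows. The ANT-C locus has 4 SNRs. The long ones run from 2537490 to 2641180 (103.7 kb, 11 whole windows) and from 2675150 to 2884750 (209.6 kb, 31 whole windows), and the short ones from 2487230 to 2512230 and from 2514530 to 2524350. The short ones lie between the reported under-replicated regions of the locus. Whole windows in the long SNRs are called the plateau, and locus windows that touch no SNR or SSR are called the flank.

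The BX-C plateau was among the most H3K27me3-rich stretches of the arms in both genotypes. In wild type its 54 windows had a mean of 2.16 (SD 0.19, from 1.555 to 2.615), and in SuUR mutants a mean of 1.99 (SD 0.27, from 1.395 to 2.475). The median window stood 4.52-fold over input in wild type and 3.97-fold in SuUR. The mean of the plateau lay above 99.8% of windows of the arms 2L, 2R, 3L, 3R and X in wild type and above 99.6% in SuUR.

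Of the 23682 arm windows, 78 reached 4-fold over input in wild type, and 48 of these, or 61.5%, were in the BX-C locus. In SuUR mutants 94 arm windows reached this level, 31 of them (33.0%) in the BX-C locus. At 2-fold the BX-C locus had 62 windows in each genotype, while 2.63% of all arm windows reached 2-fold in wild type and 3.32% in SuUR. Thus the number of BX-C windows above 2-fold was equal in the genotypes, and fewer reached 4-fold in SuUR.

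**Figure D1:**
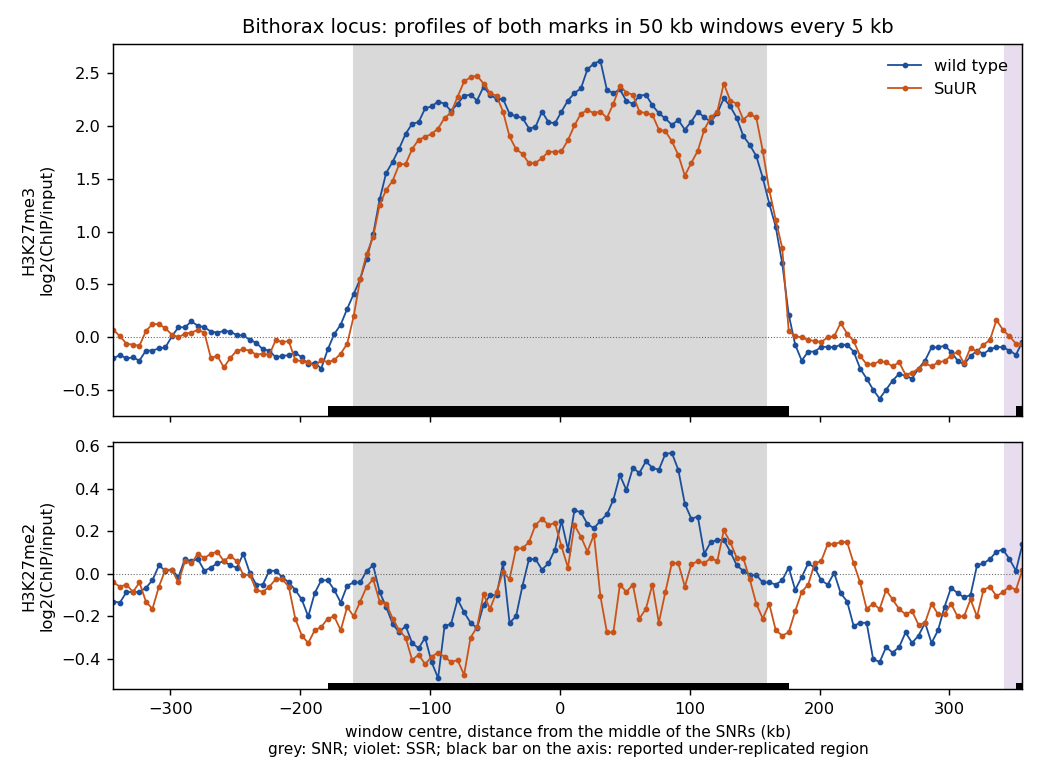
log2(ChIP/input) of H3K27me3 (upper plot) and H3K27me2 (lower plot) along the Bithorax locus in wild type (blue) and SuUR (orange), by distance of the window centre from the middle of the SNR in kb. Points are 50 kb windows, grey is the SNR, violet the SSR and the black bar the reported under-replicated regions. H3K27me3 stays above 1.39 in all plateau windows of both genotypes, and H3K27me2 separates the genotypes in the right part of the SNR, where wild type reaches 0.57.

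The plateau of the BX-C was not flat, and its shape was alike in the genotypes. Both profiles had 3 main crests separated by 2 dips. In wild type the crests reached 2.37 (window from 12560000 to 12610000), 2.615 (12650000 to 12700000) and 2.26 (12745000 to 12795000), and the dips 1.975 (12595000 to 12645000) and 1.965 (12715000 to 12765000). The SuUR crests reached 2.475 (12555000 to 12605000), 2.38 (12665000 to 12715000) and 2.40 (12745000 to 12795000), with dips of 1.645 and 1.53 in the same windows as in wild type. The dips of SuUR were therefore deeper than those of wild type, by 0.33 and 0.435, whereas the outer crests were higher in SuUR. The middle crest was the highest in wild type, and only 2 arm windows, itself included, were as high in that profile.

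Averaged over the plateau, H3K27me3 was higher in wild type by 0.17 (SD over windows 0.18, from −0.235 to 0.48), or 1.12-fold. Wild type was the higher genotype in 40 of 54 windows. Over all arm windows the mean difference was −0.07 (SD 0.27), and 37.2% of windows were higher in wild type. With quantile normalization redone over the arms the difference of the BX-C plateau was 0.26, and with each profile centred on 3R it was 0.23. Taking all windows whose centre lay inside the SNR lowered it to 0.13.

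At a threshold of 0.25 on the log2 scale (1.19-fold), 22 of the 54 plateau windows were higher in wild type and 0 were higher in SuUR. In the whole BX-C locus 27 of 141 windows (19.1%) passed in favour of wild type and 8 (5.67%) in favour of SuUR. The shares among all arm windows were 9.09% and 23.4%, and among the windows of 3R 6.03% and 24.1%. The share of the locus in favour of wild type was above that of 3R and of the arms, and its share in favour of SuUR was below both. With quantile normalization redone over the arms the counts were 39 and 2, and with each profile centred on 3R they were 33 and 2. Background shares under these scalings are not given, so these counts cannot be set against them.

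The windows past the threshold formed runs. The longest run in favour of wild type had 10 windows centred from 12610000 to 12655000, which is the left dip, with means of 2.10 in wild type and 1.76 in SuUR. A run of 4 windows centred from 12665000 to 12680000 held the middle crest (2.52 and 2.12), and a run of 4 windows from 12735000 to 12750000 held the right dip (2.05 and 1.67). The longest run in favour of SuUR had 3 windows, centred from 12790000 to 12800000 at the right end of the SNR, with means of 1.68 in wild type and 1.98 in SuUR. These 3 windows extend past the end of the SNR, and no plateau window passed the threshold in favour of SuUR. SuUR was the higher genotype in 14 of the 54 plateau windows, among them the 7 windows of the left crest centred from 12565000 to 12595000, where the difference reached −0.235.

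Windows placed end to end, which share no sequence, gave the same picture. In wild type the 6 windows of the BX-C SNR from 12485000 onward had H3K27me3 values of 1.555, 2.14, 2.09, 2.355, 2.295 and 2.04. In SuUR the values were 1.395, 2.125, 1.78, 2.115, 2.12 and 2.08. Wild type was higher in 5 of these 6 windows, and only the last was higher in SuUR.

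H3K27me2 showed a different pattern in the BX-C. In wild type it averaged 0.08 over the plateau (SD 0.29, from −0.49 to 0.57), and in SuUR −0.08 (SD 0.21, from −0.475 to 0.26). The wild type mean lay above 62.9% of arm windows and the SuUR mean above 36.4%, and the flanks together averaged −0.10 (SD 0.14) in wild type and −0.06 (SD 0.12) in SuUR. The wild type plateau was also split. Its left 27 windows had a mean H3K27me2 of −0.17 (SD 0.16) and its right 27 windows a mean of 0.33 (SD 0.15), with H3K27me3 of 2.10 and 2.22. The mean of the right windows lay above 94.4% of arm windows in wild type and above 49.2% in SuUR. In SuUR the left and right windows had H3K27me2 means of −0.15 (SD 0.25) and −0.001 (SD 0.14).

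In the left part of the plateau the H3K27me2 difference went both ways, from −0.32 to 0.295, with a mean of −0.01 (SD 0.15). In the right part it had a mean of 0.33 (SD 0.26), and wild type was higher in 25 of 27 windows. Of the 3R windows outside the loci, 48.65% had more H3K27me2 in wild type. The right part was chosen after its values were seen, and its windows overlap, so this count is no test. A single run of 14 windows centred from 12675000 to 12740000 carried most of the difference in the right part. This run had a mean of 0.44 in wild type and −0.11 in SuUR. The window from 12695000 to 12745000 had 0.49 in wild type and −0.23 in SuUR, a difference of 0.72. Only 43 of 23676 arm windows (0.182%) had a difference as large in this direction. The 6 end-to-end windows had H3K27me2 values of −0.155, −0.235, −0.20, 0.29, 0.53 and 0.15 in wild type, against −0.14, −0.415, 0.12, 0.175, −0.165 and 0.075 in SuUR. The fifth of them, from 12685000 to 12735000, carried the gap.

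At the 0.25 threshold 18 of the 141 BX-C windows (12.8%) had more H3K27me2 in wild type and 7 (4.96%) had more in SuUR. The shares over the arms were 13% and 13.2%, and over 3R 12.4% and 11.8%. The number of BX-C windows in favour of wild type was thus close to the background share. At a threshold of 0.5 the BX-C locus kept 10 windows in favour of wild type and 0 in favour of SuUR. These 10 overlapping windows all lay in the run of 14 windows, and the share of arm windows past 0.5 is not given here. In the run of 14 windows, which was picked by its H3K27me2 difference, H3K27me3 had means of 2.22 in wild type and 2.06 in SuUR.

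**Figure D2:**
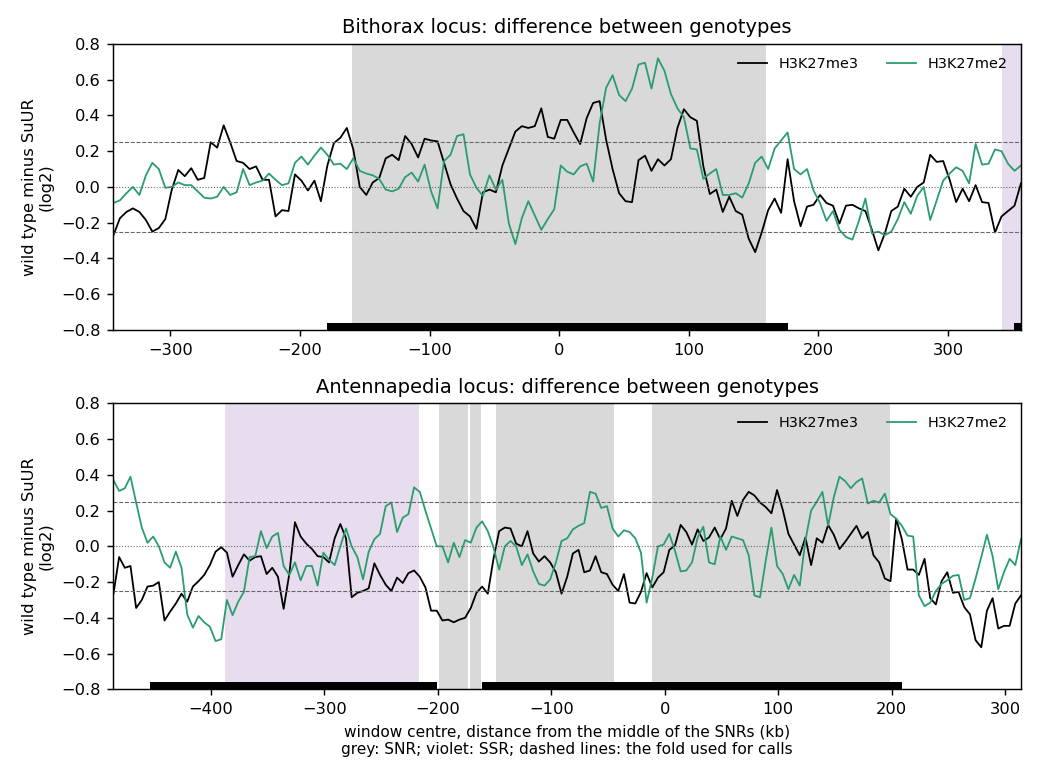
Difference between genotypes (wild type minus SuUR, log2) for H3K27me3 (black) and H3K27me2 (green) along the Bithorax locus (upper plot) and the Antennapedia locus (lower plot), by distance of the window centre from the middle of the SNRs in kb. Dashed lines mark 0.25 in each direction, grey the SNRs, violet the SSRs and black bars the reported under-replicated regions. The H3K27me2 difference peaks at 0.72 in the Bithorax SNR. In the Antennapedia locus the H3K27me3 difference has a mean of −0.38 over the short SNRs and falls lowest, to −0.565, in the right flank.

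The flanks of the BX-C had no H3K27me3 enrichment in either genotype. In the 32 windows of the left flank the mean was −0.07 in wild type (SD 0.12) and −0.07 in SuUR (SD 0.12). In the 27 windows of the right flank it was −0.24 (SD 0.15) in wild type and −0.16 (SD 0.13) in SuUR. Over both flanks the difference was −0.04 (SD 0.15), and it turned to 0.01 with quantile normalization redone over the arms and to 0.03 with the profiles centred on 3R. The drop from plateau to flank was thus 2.29 on the left and 2.40 on the right in wild type (difference of medians, log2), and 2.06 and 2.22 in SuUR.

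H3K27me2 of the BX-C flanks was near input as well. The left flank had means of −0.02 (SD 0.07) in wild type and −0.04 (SD 0.11) in SuUR, and the right flank −0.19 (SD 0.14) and −0.08 (SD 0.13). Beyond the right flank the locus touches an SSR that starts at 12985730. The 3 windows centred inside it had H3K27me3 means of −0.11 in wild type and −0.04 in SuUR, and H3K27me2 means of 0.08 and −0.04.

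The ANT-C carried less H3K27me3 than the BX-C and was divided into blocks. Its 42 plateau windows had a mean of 1.32 in wild type (SD 0.44, from 0.575 to 2.03) and 1.26 in SuUR (SD 0.45, from 0.53 to 2.09). The 209.6 kb SNR was the richer, with 1.49 (SD 0.36) in wild type and 1.38 (SD 0.43) in SuUR. The 103.7 kb SNR had 0.845 (SD 0.28) and 0.93 (SD 0.31). Only 2 wild type windows and 1 SuUR window of the ANT-C reached 4-fold over input, and 42 and 47 windows reached 2-fold.

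**Figure D3:**
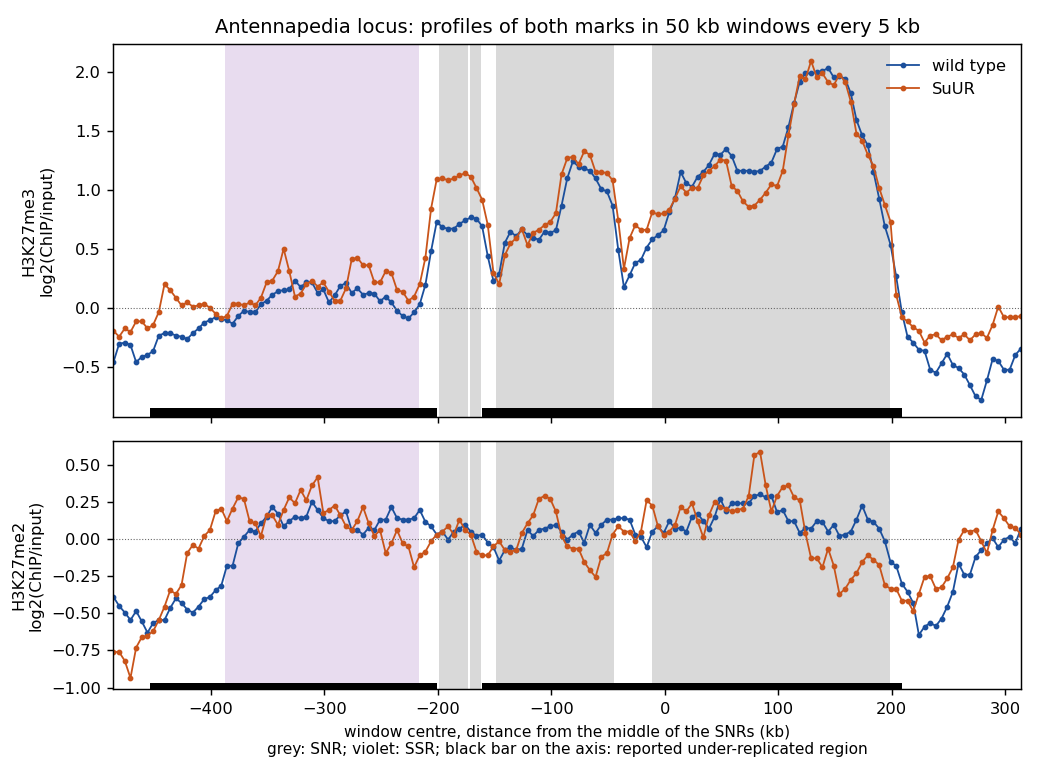
log2(ChIP/input) of H3K27me3 (upper plot) and H3K27me2 (lower plot) along the Antennapedia locus in wild type (blue) and SuUR (orange), by distance of the window centre from the middle of the SNRs in kb. Points are 50 kb windows, grey the SNRs, violet the SSR and black bars the reported under-replicated regions. The highest H3K27me3 block, with maxima of 2.03 in wild type and 2.09 in SuUR, is at the right end, and the profiles part over the short SNRs and in the flanks.

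Within the 209.6 kb SNR, H3K27me3 peaked toward the right. In wild type the 4 end-to-end windows from 2680000 onward had values of 1.055, 1.16, 1.915 and 1.59, and in SuUR 0.975, 0.90, 1.965 and 1.475. The highest windows were from 2805000 to 2855000 in wild type (2.03) and from 2790000 to 2840000 in SuUR (2.09). Within the 103.7 kb SNR the 2 end-to-end windows had 0.615 and 1.18 in wild type and 0.53 and 1.325 in SuUR, so the right window was the higher in both genotypes. Between these SNRs the signal dipped, to 0.175 in wild type and 0.33 in SuUR in the window from 2625000 to 2675000.

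The genotypes differed little in the ANT-C plateau. The mean H3K27me3 difference was 0.06 (SD over windows 0.14), with 29 of 42 windows higher in wild type. It was 0.11 (SD 0.11) for the 209.6 kb SNR, where 28 of 31 windows were higher in wild type, and −0.09 (SD 0.09) for the 103.7 kb SNR, where 10 of 11 were higher in SuUR. The value of the 103.7 kb SNR was close to the −0.10 of the 3R windows outside the loci. Of those 3R windows, 33.6% were higher in wild type and 65.4% in SuUR. With quantile normalization redone over the arms the differences were 0.17 for the plateau, 0.21 for the 209.6 kb SNR and 0.045 for the 103.7 kb SNR, and with centring on 3R they were 0.12, 0.17 and −0.02. The sign of the 103.7 kb SNR thus depends on the scaling. Taking all windows whose centre lay inside the long SNRs lowered the plateau difference to 0.026. The largest difference in favour of wild type was 0.315, in the window from 2760000 to 2810000, where the values were 1.345 in wild type and 1.03 in SuUR.

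The short SNRs at the left end of the ANT-C had more H3K27me3 in SuUR mutants. The 7 windows centred in their span had 0.71 in wild type (SD 0.04, from 0.67 to 0.765) and 1.09 in SuUR (SD 0.04, from 1.015 to 1.14). These windows overlap each other, and none lies whole inside an SNR, so their narrow ranges are no measure of error. The difference was −0.38, and 10.8% of arm windows lay below it. Redoing the quantile normalization over the arms gave −0.25, and centring on 3R gave −0.32. A run of 9 windows centred from 2480000 to 2520000 passed the threshold in this direction, the longest such run over SNRs of both loci. The same 7 windows had H3K27me2 means of 0.05 in wild type and 0.04 in SuUR. In the gap between the long SNRs the 7 windows also had more H3K27me3 in SuUR, 0.64 (SD 0.15) against 0.40 (SD 0.14).

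The ANT-C flanks differed in one direction throughout. The left flank of 15 windows had an H3K27me3 mean of −0.31 (SD 0.09) in wild type and −0.06 (SD 0.14) in SuUR. The right flank of 19 windows had −0.51 (SD 0.12) in wild type and −0.19 (SD 0.09) in SuUR. All 34 flank windows were higher in SuUR, with a mean difference of −0.29 (SD 0.12, from −0.565 to −0.06). Of the 3R windows outside the loci, 65.4% were higher in SuUR, with a mean difference of −0.10 (SD 0.23). The lowest window of the locus in wild type, from 2940000 to 2990000, had −0.78 against −0.215 in SuUR. The 3R windows outside the loci had a mean of −0.06 (SD 0.34) in wild type and 0.04 (SD 0.38) in SuUR. The mean of the right flank lay above only 3.81% of arm windows in wild type and above 28.5% in SuUR.

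Over the whole ANT-C locus 43 of 161 windows (26.7%) passed the 0.25 threshold in favour of SuUR and 5 (3.11%) in favour of wild type. The share in favour of SuUR was near the 24.1% of 3R and the 23.4% of the arms, and the share in favour of wild type was below the 6.03% of 3R. With quantile normalization redone over the arms, 20 windows favoured SuUR and 13 wild type, and with centring on 3R 25 and 9 did, again without background shares. The flank difference remained negative under these scalings, at −0.23 and −0.22.

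An SSR lies between the left flank and the short SNRs, from 2298490 to 2469589 (171.1 kb). Its 24 whole windows had an H3K27me3 mean of 0.13 (SD 0.07) in wild type and 0.23 (SD 0.13) in SuUR, both above the left flank. The difference was −0.10 (SD 0.13), which equals the mean of the 3R windows outside the loci, −0.10 (SD 0.23). SuUR was the higher genotype in 18 of the 24 windows and in 65.4% of those 3R windows. With quantile normalization redone over the arms the difference was −0.0005, and with centring on 3R it was −0.034. For the CST antibody the authors report stronger signal in wild type across the SSRs as a set. This SSR showed no such excess in any of these scalings. H3K27me2 was 0.13 (SD 0.06) in wild type and 0.16 (SD 0.12) in SuUR. In wild type the ChIP/input values of the marks were thus alike in the SSR, whereas in the SNRs that of H3K27me3 was the larger. The antibodies differ and each mark was normalized apart, so these values do not compare the amounts of the marks.

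H3K27me2 of the ANT-C plateau was 0.12 (SD 0.09, from −0.025 to 0.30) in wild type and 0.11 (SD 0.23, from −0.37 to 0.585) in SuUR. The mean difference was 0.01 (SD 0.19), and its sign changed with the choice of windows. SuUR values spread more widely, with a maximum of 0.585 in the window from 2745000 to 2795000 and low values under the highest H3K27me3 block. In a run of 6 windows centred from 2835000 to 2860000, H3K27me2 was 0.09 in wild type and −0.26 in SuUR, while H3K27me3 was 1.79 and 1.74. This run, like the run in the right part of the BX-C, was picked by its H3K27me2 difference. The smaller H3K27me3 difference beside it therefore does not compare the marks. Over the whole 209.6 kb SNR the mean differences were 0.03 for H3K27me2 and 0.11 for H3K27me3.

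Over the whole ANT-C locus 18 windows (11.2%) had more H3K27me2 in wild type and 20 (12.4%) had more in SuUR at the 0.25 threshold, both close to the 12.4% and 11.8% of 3R. The longest run in favour of SuUR had 11 windows centred from 2265000 to 2315000, where the left flank passes into the SSR, with means of −0.30 in wild type and 0.10 in SuUR. The left flank was poor in H3K27me2 in both genotypes, −0.50 (SD 0.07) in wild type and −0.54 (SD 0.26) in SuUR, and lay above only 2.48% and 1.82% of arm windows. The lowest SuUR window of the locus, from 2190000 to 2240000, had −0.935, and only 14 arm windows were as low. The right flank had −0.24 (SD 0.25) in wild type and −0.07 (SD 0.18) in SuUR.

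The borders of the domains were placed where H3K27me3 crossed the level midway between the plateau median and the flank median on the log2 scale. At the right edge of the BX-C the crossing was 7.6 kb outside the SNR in wild type and 10.9 kb outside in SuUR. At its left edge it was inside the SNR, at −16.6 kb in wild type and −16.0 kb in SuUR, where negative values are inside. At the left edge of the ANT-C it was 7.5 and 11.1 kb outside, and at the right edge 3.6 and 2.4 kb outside. On this scale the crossings of the genotypes lay 0.7 to 3.5 kb apart at the 4 edges, and the windows are 5 kb apart. On the linear ChIP/input scale the gap between the genotypes was 5.7 kb at the left edge of the ANT-C (3.9 and 9.6 kb outside). It was 5.5 kb at the right edge of the BX-C (−1.6 and 3.9 kb), with 3.0 and 1.1 kb at the remaining edges. Only short SNRs lie at the left edge of the ANT-C. With the inner level from the SNRs at that edge, its log2 crossings were 12 kb outside in wild type and 11.4 kb in SuUR. By the steepest change, the left border of the BX-C lay at −20.8 kb in wild type and at −0.8 kb in SuUR. At the remaining edges the steepest change was at the same position in both genotypes. It was 7.2 kb (left) and 5.2 kb (right) outside for the ANT-C, and 11.6 kb outside at the right edge of the BX-C. Whether the borders differ between the genotypes thus depends on how they are placed.

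Among the edges where both genotypes passed from 10% to 90% of the step, the left edge of the BX-C had the most gradual change. On the linear scale H3K27me3 passed from 10% to 90% of the step over 52.5 kb in wild type and 49.5 kb in SuUR there, against 38.6 kb and 20.8 kb at its right edge. An ideal sharp edge seen through a 50 kb window takes 40 kb. At the right edge of the ANT-C the distance was 28.4 kb in wild type and 19.6 kb in SuUR. Distances under 40 kb are shorter than a sharp edge between constant levels would give, so they describe the profiles and measure no border width. At the left edge of the ANT-C, where only short SNRs lie, wild type did not cross both levels and SuUR crossed them within 22.3 kb.

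**Figure D4:**
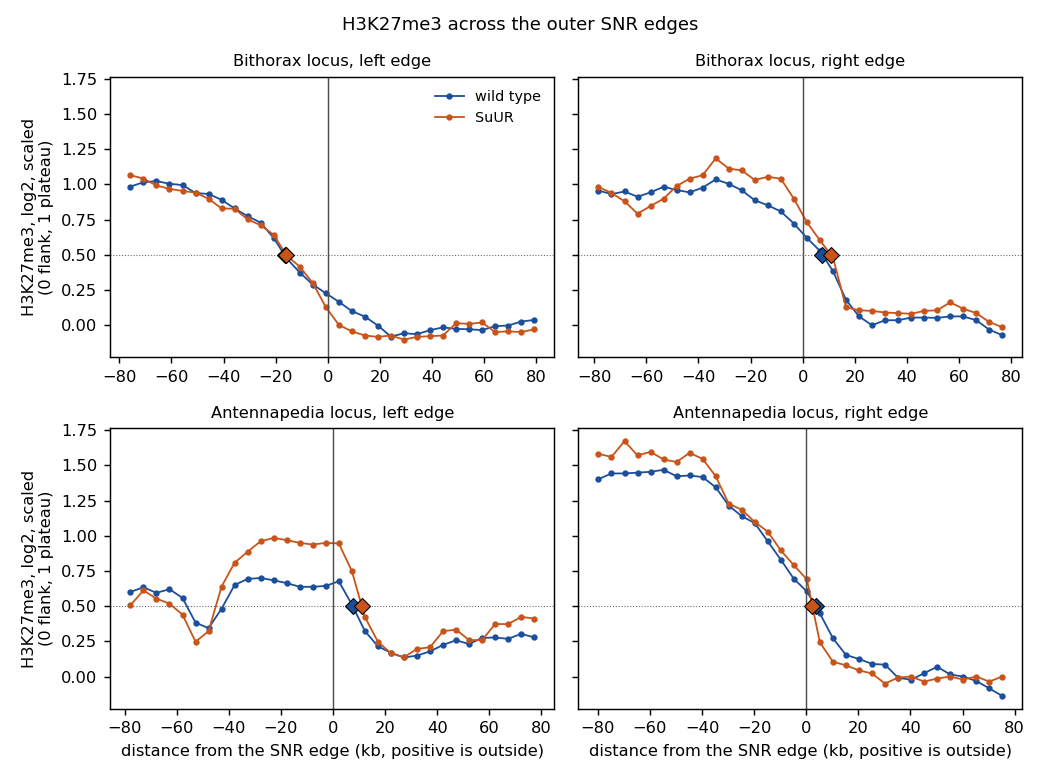
H3K27me3 across the outer SNR edges of the Bithorax locus (upper plots) and the Antennapedia locus (lower plots), with log2(ChIP/input) scaled so that 0 is the flank median and 1 the plateau median of that genotype, by distance from the edge in kb (positive is outside). Diamonds mark the midway crossing in wild type (blue) and SuUR (orange). On this log2 scale the crossings of the genotypes lie within 3.5 kb of each other at every edge, and those of the left Bithorax edge lie inside the SNR, at −16.6 and −16.0 kb.

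Against the other 37 SNRs that hold a whole window, the BX-C was among the richest in H3K27me3. It ranked 2 of 40 in wild type and 6 of 40 in SuUR, the 209.6 kb SNR of the ANT-C ranked 11 and 19, and the 103.7 kb SNR ranked 32 and 36. The other SNRs had a median of 1.20 in wild type (from 0.411 to 2.40) and 1.29 in SuUR (from 0.635 to 2.86). Only an SNR on X, from 8501370 to 8570670, was richer than the BX-C in wild type, with 2.40. On 3R the nearest to the BX-C was the SNR from 647860 to 729970, with 1.92 in wild type and 2.11 in SuUR.

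In the H3K27me3 difference the BX-C SNR and the longer ANT-C SNR ranked near the top of the SNRs. The other 37 SNRs had a median of −0.12 (from −0.558 to 0.226), and 3 of them had a difference above 0. The BX-C ranked 3 of 40 with 0.17, the 209.6 kb SNR of the ANT-C ranked 5 with 0.11, and the 103.7 kb SNR ranked 16 with −0.09. The sign count rests on the scaling, since 16 of the other 37 SNRs were above 0 with quantile normalization redone over the arms and 10 with centring on 3R. The ranks moved little, to 4, 5 and 13 under the former and 3, 5 and 16 under the latter. Among the 10 other SNRs of 3R the median was −0.16 and 1 was above 0, from 11811210 to 11866060, which rests on 1 window. For H3K27me2 the other SNRs had a median difference of 0.17 (from −0.293 to 0.515), and the BX-C ranked 20 of 40 with 0.16. The difference of H3K27me2 over the BX-C as a whole was therefore close to the median of the other SNRs.

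**Figure D5:**
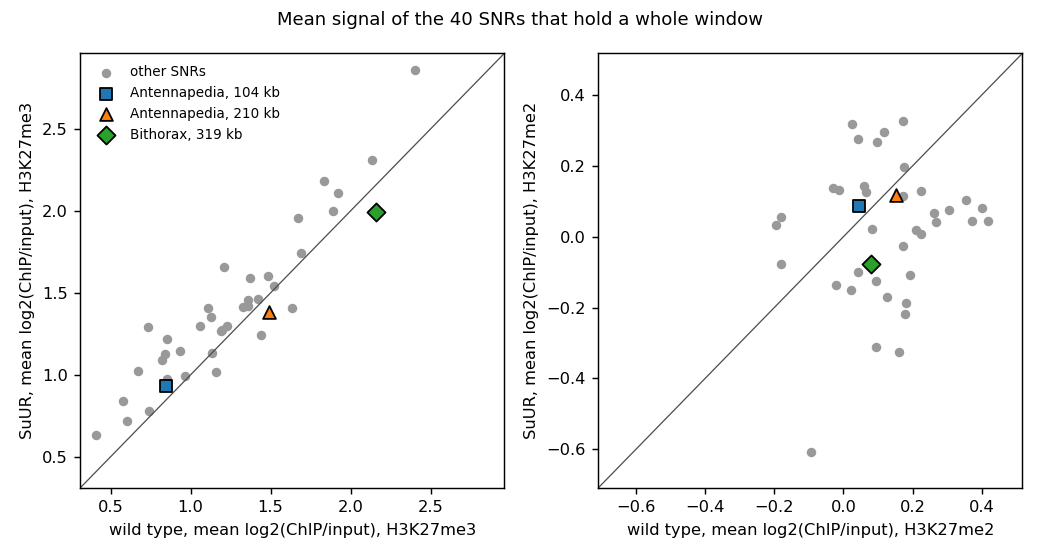
Mean log2(ChIP/input) of the 40 SNRs that hold a whole window, wild type on the x axis and SuUR on the y axis, for H3K27me3 (left plot) and H3K27me2 (right plot), with the line of equal values. Grey points are the other 37 SNRs and coloured symbols the 3 SNRs of the Hox loci. In H3K27me3, as scaled in the deposited profiles, most SNRs lie above the line, while the Bithorax SNR (2.16 and 1.99) and the longer Antennapedia SNR (1.49 and 1.38) lie below it.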

How the data were processed

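The profiles were deposited as log2 of the ChIP/input ratio. The authors mapped paired-end reads to dm3 with MOSAIK, calculated RPM for ChIP and input, took the log2 ratio and quantile normalized it. For each mark the largest gap between wild type and SuUR values of equal rank was 0. Steps between neighbouring windows were correlated at −0.42 to −0.48 at a lag of 50 kb, as windows of that length give. Whether gland libraries were pooled is not given in the sources used here, and read numbers are unknown, so no intervals on a value could be given. The sources give different numbers of gland pairs per sample, and the labels give 20.

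A difference is wild type minus SuUR. The border search covered 60 kb on each side of an SNR edge and was tested on a simulated step. Regions and windows named in the text were the published regions in the loci, the highest and lowest windows of each profile and difference, and the other SNRs of 3R. Crests, dips, runs and the parts of the BX-C plateau were chosen after their values were seen. The loci, lists and settings were chosen with earlier results of these data known. Gene order came from RefSeq for Release 6. Alternatives changed the window rule, the overlap of windows, the quantile normalization, the centring, the scale, the flank, the threshold and the border level. The border with the inner level from the nearest SNRs, and both scalings of single SNRs and of the SSR, were chosen after seeing the data. Python 3.11.15, numpy 2.4.6, pandas 2.3.3 and matplotlib 3.10.9 were used.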

Additional observations from a re-analysis of the deposited data

How the results depend on the processing

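Over the alternatives tried, 88 values kept their direction and stayed within the spread or within 1.5 times, 24 moved and 6 changed sign, and the cause was not tested. Both H3K27me3 plateau differences and the ANT-C flank difference kept their direction under all alternatives. On the log2 scale the BX-C plateau ranged from 0.13 with windows taken by their centre to 0.26 with quantile normalization redone over the arms. The ANT-C plateau ranged from 0.026 to 0.17 under the same alternatives. The H3K27me2 difference of the ANT-C plateau was −0.0187 with non-overlapping windows and −0.000297 as log2 of the mean linear ratio. The H3K27me3 difference of the BX-C flank was 0.0142 with quantile normalization redone over the arms and 0.0282 with centring on 3R, and its H3K27me2 difference was 0.00831 with windows taken by their centre. The H3K27me3 difference of the 103.7 kb SNR was 0.045 and the other SNRs above 0 were 16 with quantile normalization redone over the arms, and 10 with centring. For H3K27me3 at a threshold of 0.5 the windows higher in wild type were 0 in the ANT-C and 0 in the BX-C, and those higher in SuUR were 2 and 0. With quantile normalization redone over the arms, 13 ANT-C windows were higher in wild type and 20 in SuUR, and 2 BX-C windows were higher in SuUR. With centring these counts were 9, 25 and 2, and no background shares are given at 0.5 or under these scalings. These scalings moved the median difference of 3R from −0.09 to −0.03, or by the centring offset of −0.065. On the linear scale the crossings were −1.8 kb outside the right ANT-C edge in wild type, −23.4 kb (wild type) and −22.4 kb (SuUR) outside the left BX-C edge, and −1.6 kb and 3.9 kb outside its right edge. By the steepest change the left BX-C border of SuUR was at −0.8 kb. No paired analysis was possible because there is 1 profile per genotype and mark and no test was run. Unknown depth limits every value.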
